A study of Mus musculus with 6 samples.

Results

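Expression of the cell cycle and DNA replication machinery was compared between Igf1-/- lungs and Igf1+/+ control lungs of mouse embryos at E18.5, embryonic day 18.5, just before birth. The set was a list of 43 genes, comprising 7 G1 cyclins and their kinases, 13 genes of DNA replication and nucleotide supply, 18 genes of mitosis, 2 inhibitors of cyclin-dependent kinases and 3 transcription factors. The rule took the probe sets whose annotation gives exactly 1 symbol, that of a listed gene, and kept for each gene the probe set with the highest mean over the 6 arrays. A probe set was found for 42 of the 43 genes, out of 12393 genes on the array that had a probe set of their own. Ccnb1 had none in the annotation used. The rule itself used no difference between genotypes, but the list was drawn up with earlier results of these data known.

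Both genotypes were embryos of matings between heterozygotes on a C57BL/6J background, into which the mutation had been backcrossed. The Igf1-/- embryos carried the null allele in every cell from conception, so that the lung and the rest of the embryo, including its blood and circulation, lacked the gene alike. The methods state that pups of this age were delivered by caesarean section and helped to breathe before the lungs were taken. The paper raises the possibility that normal breathing of the wild types added to some expression differences. Its part in the values given here was not tested. Each genotype was represented by 3 arrays of whole lung, Igf1-/- replicates 1 to 3 and Igf1+/+ replicates 1 to 3. The labels mention pooled lungs whereas the methods describe 3 separate RNA samples per genotype, so that the p values measure only the spread between these samples, which may be technical in part. The values are log2 expression values after RMA, and every log2 fold change given is the Igf1-/- mean less the control mean. The words rose and fell are kept for genes with a limma adjusted p under 0.10. In a whole organ, fewer cells of a dividing type and less mRNA in each such cell cannot be told apart.

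Cells commit to division in G1, when D-type cyclins with Cdk4, followed by E-type cyclins with Cdk2, phosphorylate the retinoblastoma protein and release E2F transcription factors. E2F activity drives the genes that load and fire replication origins and make deoxynucleotides, and a later wave, controlled through the DREAM and B-MYB complexes, drives the genes of mitosis. The CDK inhibitors oppose the first step. Insulin-like growth factor 1 is a classical signal for passage through G1, and in the lung before birth proliferation slows as the distal airspaces mature.

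Promoter windows of 5 genes are shown first, because their letters differed in frequency between the replication and the mitosis genes. They are RefSeq windows of the GRCm38.p6 assembly, 300 bases each, from 250 bases before a transcript start to the first 50 bases of its first exon, written in the direction of transcription. Matches on either strand are in capitals: the E2F letters, the cell cycle homology region (CHR) and the NF-Y box CCAAT. The E2F letters were TTCCCGC and, as further forms, TTCGCGC and also TTGCCGC and finally TTGGCGC. The CHR letters were TTTGAA and, as a further form, TTCGAA. An E2F match can share bases with a CCAAT match, as happened in 2 of the listed genes. Mcm5 (chr8:75109259-75109558, plus strand) and Mcm7 (chr5:138171834-138172133, minus strand, 1 of its 2 windows) stand for the replication genes with the largest differences below. Bub1 (chr2:127831810-127832109, minus strand) and Top2a (chr11:99024140-99024439, minus strand) stand for the mitosis genes. Cdk1 (chr10:69352863-69353162, minus strand) held all 3 kinds of match, as did the printed Mcm7 window and that of Mki67, which is not printed.
Mcm5: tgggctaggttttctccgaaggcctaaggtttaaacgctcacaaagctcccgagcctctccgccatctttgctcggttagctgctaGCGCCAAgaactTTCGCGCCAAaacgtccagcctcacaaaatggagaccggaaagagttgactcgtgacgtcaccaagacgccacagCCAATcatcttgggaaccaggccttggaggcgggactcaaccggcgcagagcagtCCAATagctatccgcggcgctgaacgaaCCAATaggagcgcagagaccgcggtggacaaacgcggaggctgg
Mcm7: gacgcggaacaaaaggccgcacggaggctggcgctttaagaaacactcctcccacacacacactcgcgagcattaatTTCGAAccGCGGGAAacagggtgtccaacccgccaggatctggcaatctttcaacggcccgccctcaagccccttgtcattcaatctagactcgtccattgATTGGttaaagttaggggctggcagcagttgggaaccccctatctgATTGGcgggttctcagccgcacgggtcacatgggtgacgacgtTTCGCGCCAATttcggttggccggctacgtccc
Bub1: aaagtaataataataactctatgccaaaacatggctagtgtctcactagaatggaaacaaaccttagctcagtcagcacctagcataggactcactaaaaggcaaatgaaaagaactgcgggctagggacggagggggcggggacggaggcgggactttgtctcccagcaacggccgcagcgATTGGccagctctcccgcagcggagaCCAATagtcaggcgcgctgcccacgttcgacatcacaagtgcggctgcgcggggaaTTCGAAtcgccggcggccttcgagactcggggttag
Top2a: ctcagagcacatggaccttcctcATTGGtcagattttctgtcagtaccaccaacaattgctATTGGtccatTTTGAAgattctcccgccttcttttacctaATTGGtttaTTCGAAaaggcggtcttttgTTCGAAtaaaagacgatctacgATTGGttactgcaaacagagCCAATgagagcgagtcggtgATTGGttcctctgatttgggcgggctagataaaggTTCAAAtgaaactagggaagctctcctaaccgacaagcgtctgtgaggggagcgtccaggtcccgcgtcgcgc
Cdk1: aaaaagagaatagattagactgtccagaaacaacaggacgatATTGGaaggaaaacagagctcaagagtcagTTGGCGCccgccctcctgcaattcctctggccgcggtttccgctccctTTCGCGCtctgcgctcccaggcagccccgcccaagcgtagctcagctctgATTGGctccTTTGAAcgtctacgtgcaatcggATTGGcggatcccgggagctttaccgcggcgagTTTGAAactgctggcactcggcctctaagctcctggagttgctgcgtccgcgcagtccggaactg

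A window was found for 34 of the 43 genes, and Myc, Ccnd1, Mcm4, Ccne2, Smc4, Ccna2, Ccnd2, Kif20a and Aurkb had none in the table. E2F letters were found in 7 of the 12 replication genes with a window (58.3%) and in 3 of the 14 mitosis genes (21.4%), against 10.9% of the 27025 genes of the table. The replication genes that held them were Cdc6, Mcm3, Mcm5, Mcm6, Mcm7, Rrm1 and Rrm2. CHR letters were found in 11 of the 14 mitosis genes (78.6%) and in 3 of the 12 replication genes (25.0%), against 21.7% of all genes. Top2a held 4 CHR and 6 CCAAT matches in its window. CCAAT was found in 75.0% of the replication genes, 85.7% of the mitosis genes and 41.1% of all genes. The lists of further genes of the same processes, which share no gene with these, had E2F letters in 62.5% of 40 replication and 26.7% of 60 mitosis genes, and CHR letters in 20.0% and 61.7%. These matches are a description of the letters in the windows, not of binding.

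**Figure D1:**
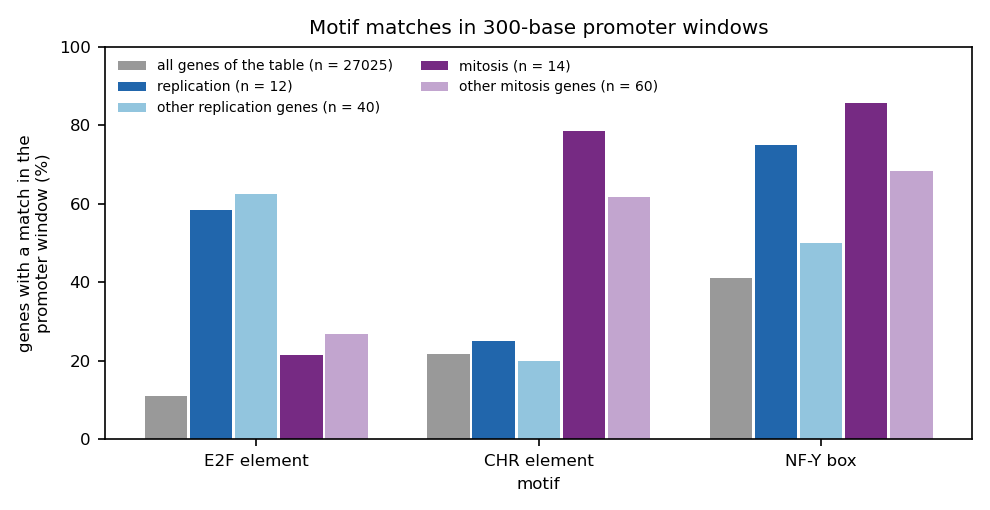
Share of genes with a motif match in their 300-base RefSeq promoter window (y axis, percent of genes) for E2F, CHR and NF-Y letters (x axis); bars are gene lists, with the number of genes in the legend. E2F letters were most frequent in the replication lists (58.3% and 62.5%) and CHR letters in the mitosis lists (78.6% and 61.7%).

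None of the 42 genes rose or fell, against 0.597% of all genes (74 of 12393, of which 18 or 0.145% rose and 56 or 0.452% fell). At an adjusted p under 0.20 a single listed gene passed, Ccnd2, against 2.72% of all genes. Before adjustment, limma gave a p under 0.05 to 5 of the 42 genes with higher and to 1 with lower values in the Igf1-/- lungs, where 7.04% and 5.66% of all genes did. The 5 higher genes were Ccnd2, Cdk4, Ccnd3, Ccne1 and Mcm7, and the lower one was Cdkn2c. All 3 Igf1-/- arrays lay above all 3 Igf1+/+ arrays for 3 genes (Ccnd2, Cdk4 and Mcm7) and below them for Cdkn2c, against 11.9% and 6.84% of all genes. With 3 arrays against 3, the smallest p an exact permutation test can give is 0.1. The 42 log2 fold changes ran from -0.38 to 0.42 with a median of 0.05, and the median over all genes was 0.03.

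**Figure D2:**
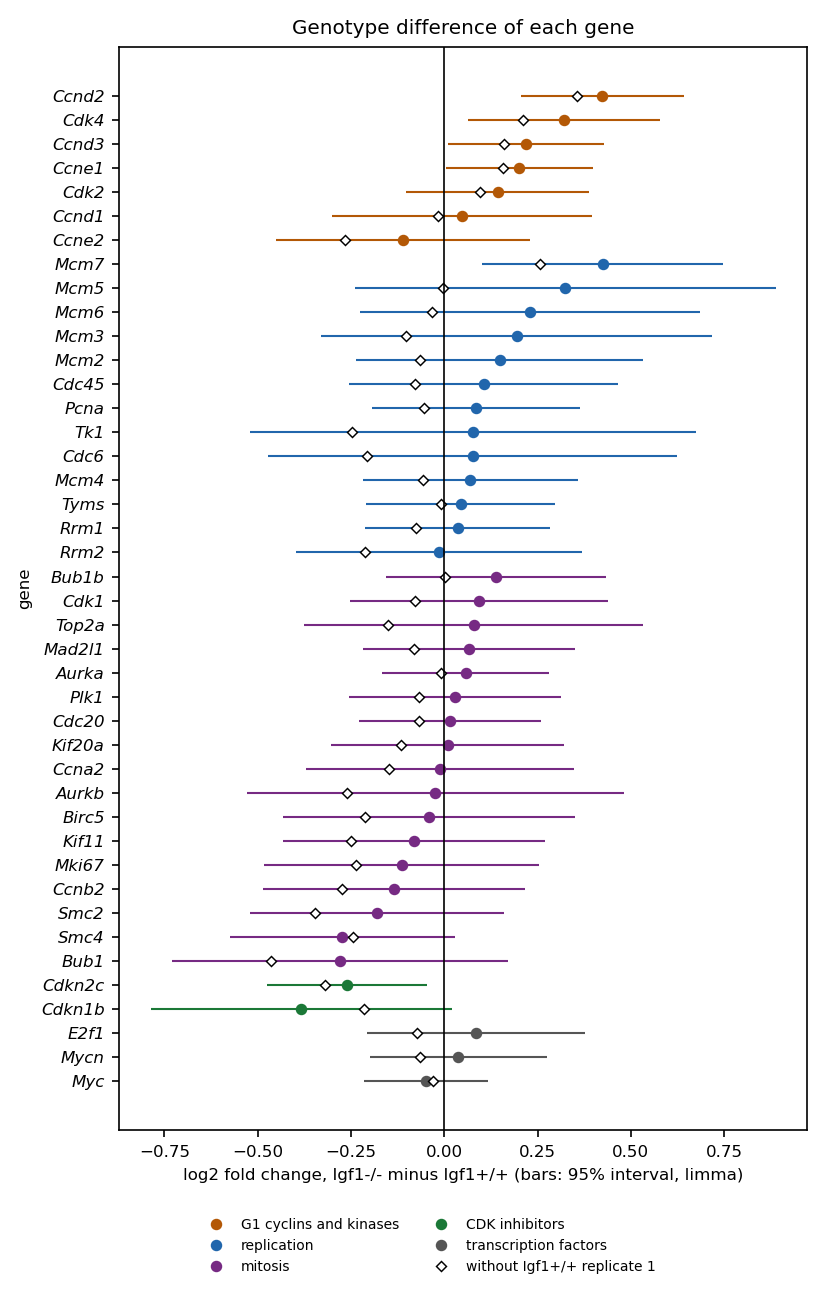
Log2 fold change, Igf1-/- minus Igf1+/+ (x axis), of each of the 42 genes (y axis), coloured by role, with the limma 95% interval (n = 3 arrays per genotype). Open diamonds give the fold change without Igf1+/+ replicate 1; most replication genes lie to the right of 0 with all arrays and to the left of it without that array.

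The G1 cyclins and kinases mostly had higher values in the Igf1-/- lungs. Of these 7 genes, 6 had a log2 fold change above 0, with a median of 0.20, but none rose by the test. Without Igf1+/+ replicate 1, 5 of the 7 were above 0, with a median of 0.16. Ccnd2, which encodes the D-type cyclin D2, reached 10.39, 10.41 and 10.61 in Igf1-/- lungs, compared with 9.91, 10.06 and 10.17 in controls. The lowest Igf1-/- value lay above the highest control value. The difference was 0.42 (SE 0.10, adjusted p = 0.138), or 1.34-fold, and over the alternatives the adjusted p ran from 0.0658 with array quality weights to 0.394 without Igf1+/+ replicate 1. All 7 probe sets of Ccnd2 had a log2 fold change above 0, from 0.10 to 0.42, and the groups did not overlap at 3 of them, which are among its 4 brightest.

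Cdk4, the kinase partner of the D-type cyclins, had values of 9.95, 10.12 and 10.17 against 9.54, 9.79 and 9.95 in controls. The groups touched, since Igf1-/- replicate 1 lay only just above Igf1+/+ replicate 3, and the log2 fold change was 0.32 (SE 0.11, adjusted p = 0.308). Its 3 probe sets gave log2 fold changes of 0.24 to 0.32. Ccnd3, the D-type cyclin D3, had values of 10.33, 10.20 and 10.31 against 9.94, 10.01 and 10.23, so that only Igf1-/- replicate 2 fell within the range of the controls. The difference was 0.22 (SE 0.09, adjusted p = 0.379). Ccne1, an E-type cyclin that activates Cdk2, behaved alike, with 6.37, 6.17 and 6.32 against 6.00, 6.06 and 6.19 and a difference of 0.20 (adjusted p = 0.391). For Cdk2 itself the difference was 0.14 (adjusted p = 0.612).

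The remaining G1 cyclins did not share this pattern in their values. Ccnd1, the cyclin D1 gene, gave 9.90, 9.90 and 10.05 in Igf1-/- lungs, compared with 9.78, 9.64 and 10.30 in controls, which held both the lowest and the highest array. Its log2 fold change was 0.05 (SE 0.15, adjusted p = 0.923). Ccne2 gave -0.11 (adjusted p = 0.788), with its highest value, 5.95, on Igf1+/+ replicate 2. No test of the difference between these cyclins and Ccnd2 was run.

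**Figure D3:**
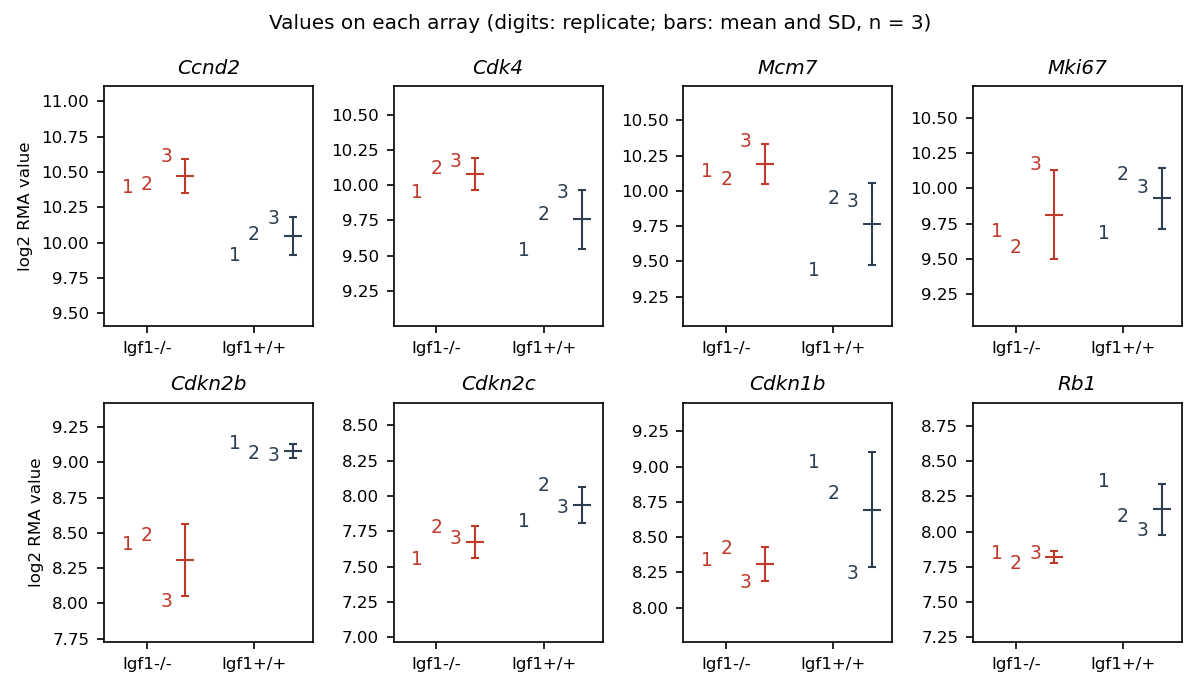
Log2 RMA value (y axis) of 8 genes on each array, by genotype (x axis); digits are replicate numbers and bars the mean and SD (n = 3). Ccnd2, Cdk4 and Mcm7 were higher on every Igf1-/- array, Cdkn2b, Cdkn2c and Rb1 lower, and Mki67 and Cdkn1b overlapped.

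Both listed CDK inhibitors had lower values in the Igf1-/- lungs, and neither fell by the test. Cdkn2c, which encodes p18INK4c, an inhibitor of Cdk4 and Cdk6, had values of 7.55, 7.78 and 7.70 against 7.82, 8.07 and 7.92. The groups did not overlap but lay close, and the log2 fold change was -0.26 (SE 0.09, adjusted p = 0.316). Cdkn1b, which encodes p27KIP1, an inhibitor of cyclin E with Cdk2, had values of 8.33, 8.42 and 8.18 against 9.03, 8.81 and 8.24. Igf1+/+ replicate 3 lay among the Igf1-/- arrays and the other 2 controls above them all. The difference was -0.38 (SE 0.18, adjusted p = 0.420). Without Igf1+/+ replicate 3 it was -0.61 (adjusted p = 0.0511), and Ccnd2 had 0.49 (adjusted p = 0.0733), so that both passed the threshold in that fit. Without Igf1+/+ replicate 1 the adjusted p of Cdkn1b was 0.793, its highest over the alternatives. Without replicate 3 of the controls, 710 of all probe sets passed in place of 126 (0.557%).

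Among 33 further genes of the RB, E2F, CDK and MYC network that were on the array, 1 fell and none rose, with a median log2 fold change of -0.00033. The gene that fell was Cdkn2b, which encodes p15INK4b, another inhibitor of Cdk4 and Cdk6. Its Igf1-/- values were 8.42, 8.48 and 8.01, whereas controls had 9.13, 9.06 and 9.04. The 3 controls lay within a narrow range, and every Igf1-/- array lay well below it. Cdkn2b fell by 0.77 (SE 0.12, adjusted p = 0.0534), with a 1.71-fold higher mean in the controls. The adjusted p was 0.122 without Igf1-/- replicate 1, 0.180 without Igf1+/+ replicate 1 and 0.133 without Igf1+/+ replicate 2, and the difference ran from -0.86 to -0.63 when each array was left out in turn. The lowest adjusted p of Cdkn2b over the alternatives was 0.0285, with a variance trend and robust estimates.

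The other inhibitors and the retinoblastoma gene are given for comparison and were chosen after their values were seen. The log2 fold change was -0.19 for Cdkn1a, the p21CIP1 gene (adjusted p = 0.425), 0.16 for Cdkn1c, the p57KIP2 gene (adjusted p = 0.567), and -0.08 for Cdkn2d, the p19INK4d gene (adjusted p = 0.791). These inhibitors did not share a direction. Rb1, which encodes the retinoblastoma protein that D-type cyclins with Cdk4 phosphorylate, had values of 7.85, 7.77 and 7.85 against 8.36, 8.11 and 8.01, with no overlap and a difference of -0.34 (SE 0.10, adjusted p = 0.232). Over the alternatives the adjusted p of Rb1 ran from 0.0965, without Igf1+/+ replicate 3, to 0.532. Mycl, a relative of Myc, had means of 7.07 and 6.72. Its groups did not overlap either, and its difference was 0.35 (SE 0.08, adjusted p = 0.151). Of the 33 genes of that network, 1 lay above the controls on every Igf1-/- array and 3 below, against 11.9% and 6.84% of all genes.

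The 3 listed transcription factors differed little between genotypes. E2f1, an activator of replication genes, had values of 6.88, 6.77 and 6.84 against 6.43, 6.85 and 6.95 (log2 fold change 0.08, adjusted p = 0.818). Myc had values of 6.46, 6.38 and 6.51 against 6.53, 6.49 and 6.47 (log2 fold change -0.05, SE 0.07, adjusted p = 0.817). Mycn, the MYC family gene of the embryonic lung epithelium, had values of 7.19, 7.08 and 7.11 against 6.88, 7.10 and 7.29 (log2 fold change 0.04, adjusted p = 0.906). Groups overlapped for all 3 genes. The other 2 probe sets of Mycn gave -0.21 and -0.25, so that its direction depended on the probe set.

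The replication genes had higher mean values in the Igf1-/- lungs, but this direction turned when 1 control array was left out. A log2 fold change above 0 was found for 12 of the 13 genes, with a median of 0.08, where 60.6% of all genes had one above 0. None rose. The MCM2-7 complex is the helicase that is loaded at origins in G1 and unwinds DNA in S phase. All 6 of its subunits had a fold change above 0 at their brightest probe sets, with a median of 0.21. Mcm7, whose window printed above holds E2F letters and 1 CHR match, had values of 10.14, 10.08 and 10.35 against 9.43, 9.95 and 9.92. The difference was 0.42 (SE 0.14, adjusted p = 0.283) with no overlap. Its other probe sets gave 0.32, 0.27 and 0.10, and the groups overlapped at each of them. Mcm5 had values of 7.99, 8.07 and 8.38 against 7.17, 8.04 and 8.26, a difference of 0.32 (SE 0.25, adjusted p = 0.619). The value of 7.17 on Igf1+/+ replicate 1 stood far below the other 5 arrays, which lay between 7.99 and 8.38. Mcm6 had the same shape, with 9.39, 9.23 and 9.59 against 8.65, 9.47 and 9.40 and a difference of 0.23 (SE 0.20, adjusted p = 0.667).

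Mcm2, Mcm3 and Mcm4 had log2 fold changes of 0.15 (adjusted p = 0.744), 0.19 (adjusted p = 0.755) and 0.07 (adjusted p = 0.850). For all 6 subunits Igf1+/+ replicate 1 was the lowest of the 6 arrays at the brightest probe set. The dimmer probe sets of Mcm2 and Mcm3 gave 0.09 to 0.20, that of Mcm6 0.03 and that of Mcm4 -0.14. At those of Mcm4 and Mcm6, Igf1-/- replicate 2 was the lowest array. Pcna, the sliding clamp of the replicative polymerases, had values of 10.80, 10.76 and 10.94 against 10.47, 10.83 and 10.95, and its log2 fold change was 0.08 (adjusted p = 0.808). Among Rrm1, Rrm2, Tyms and Tk1, which supply deoxynucleotides, 3 of 4 had a fold change above 0, with a median of 0.04. Tyms, among these 3, was dim even at its brightest probe set, with a mean of 4.36, above only 15.7% of probe sets. Cdc6 and Cdc45, which load and activate the helicase, were among the replication genes with fold changes above 0 whose groups overlapped.

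Without Igf1+/+ replicate 1, only 1 of the 13 replication genes, Mcm7, had a log2 fold change above 0, and the median of the list was -0.07. That of the 6 MCM subunits was then -0.05, and Mcm7 retained 0.26 at its brightest probe set. The direction of the replication list turned without that control array, whereas the median over all genes was 0.03 with and without it. Igf1+/+ replicate 1 was the lowest array for 12 of the 13 genes, so that leaving it out had to lower their fold changes. Leaving out each array in turn gave medians of -0.07 to 0.27 for the list.

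The mitosis genes were divided in their direction. Of the 17 genes with a probe set, 8 had a log2 fold change above 0 and 9 below, from -0.28 to 0.14 with a median of -0.01, and none had a p under 0.05 before adjustment. The lowest were Bub1 and the condensin subunits. Bub1, a kinase of the spindle checkpoint, had values of 7.29, 7.40 and 7.93 against 7.45, 8.13 and 7.88 (log2 fold change -0.28, SE 0.20, adjusted p = 0.590). Its dimmer probe set gave 0.06. Smc4, a core subunit of condensin, which compacts mitotic chromosomes, had values of 10.20, 9.90 and 10.43 against 10.50, 10.54 and 10.30 (log2 fold change -0.27, SE 0.13, adjusted p = 0.441). Igf1-/- replicate 3 lay within the controls. All 3 probe sets of Smc4 had a fold change below 0, and at the dimmest, with -0.42 (adjusted p = 0.187), the groups did not overlap. Smc2, its partner in condensin, had values of 7.83, 7.86 and 8.17 against 7.80, 8.34 and 8.26 (log2 fold change -0.18, adjusted p = 0.650).

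Kif11, the motor that separates the spindle poles, had values of 6.26, 6.50 and 6.62 against 6.21, 6.61 and 6.81 (log2 fold change -0.08, adjusted p = 0.858), and its 3 probe sets ranged from -0.37 to 0.03. Mki67, the gene of the proliferation antigen Ki-67, had values of 9.69, 9.58 and 10.17 against 9.68, 10.10 and 10.00. Igf1-/- replicates 1 and 2 and Igf1+/+ replicate 1 formed the low end, and the difference was -0.11 (SE 0.16, adjusted p = 0.802). The 95% interval of that difference ran from -0.48 to 0.25. Top2a, the topoisomerase that untangles sister chromatids and whose window printed above holds the CHR letters, had values of 9.76, 9.79 and 10.26 against 9.40, 10.08 and 10.09 (log2 fold change 0.08, adjusted p = 0.896), and Cdk1, the kinase that drives entry into mitosis, differed by 0.09 (adjusted p = 0.833). The groups overlapped for every mitosis gene at its brightest probe set. The mitosis list also comprised the cyclins Ccna2 and Ccnb2, Cdc20, an activator of the anaphase-promoting complex, the checkpoint genes Bub1b and Mad2l1, the kinases Aurka, Aurkb and Plk1, Birc5 of the chromosomal passenger complex and the kinesin Kif20a. Without Igf1+/+ replicate 1, only 1 of the 17 genes had a fold change above 0, with a median of -0.15.

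**Figure D4:**
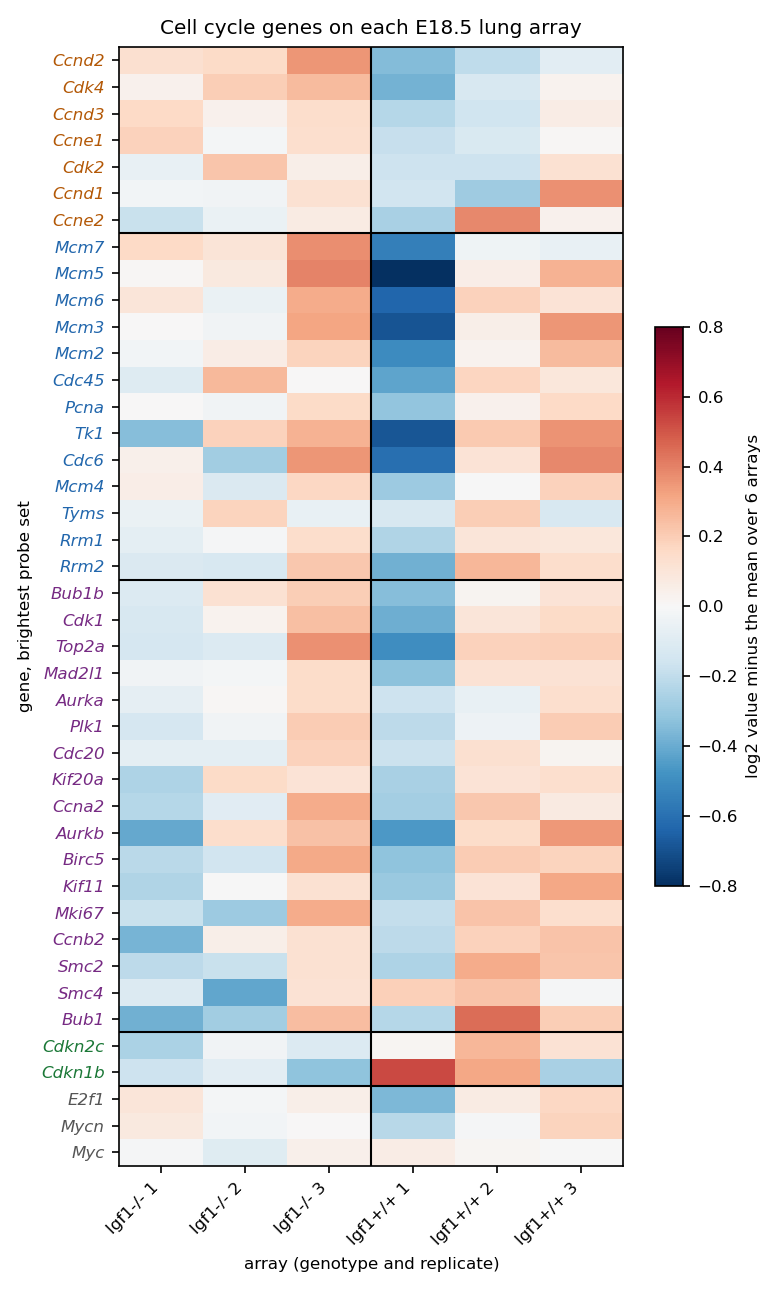
Log2 value of each of the 42 genes (y axis, coloured and divided by role) on each array (x axis), minus the mean of that gene over the 6 arrays (colour, log2 units). Igf1+/+ replicate 1 was the lowest array for 32 of the 42 genes and Igf1-/- replicate 3 the highest for 16.

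Across arrays, the replication and mitosis genes varied together and more than the genotypes differed. The mean deviation of the 13 replication genes from their means over the 6 arrays was -0.03, 0.02 and 0.22 on the Igf1-/- arrays and -0.48, 0.10 and 0.17 on the controls. That of the 17 mitosis genes was -0.19, -0.07 and 0.20 against -0.26, 0.15 and 0.16. Igf1+/+ replicate 1 was the lowest array and Igf1-/- replicate 3 the highest for both lists, so that the extremes belonged to different genotypes and the groups overlapped. Igf1+/+ replicate 1 was the lowest of the 6 arrays for 32 of the 42 genes, against 27.5% of all genes, and Igf1-/- replicate 3 the highest for 16, against 19.7%. The G1 genes spread less, with 0.03, 0.07 and 0.16 against -0.25, -0.10 and 0.08.

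The replication genes stood higher relative to the mitosis genes in the Igf1-/- lungs. The difference between the mean deviations of both lists on the same array was 0.17, 0.08 and 0.01 for Igf1-/- lungs, compared with -0.22, -0.05 and 0.01 for controls. Igf1-/- replicate 3 and Igf1+/+ replicate 3 nearly coincided, at 0.013 and 0.0095, and the means differed by 0.18, or by 0.11 without Igf1+/+ replicate 1. The further genes gave 0.10, 0.01 and 0.03 against -0.06, -0.05 and -0.03. These are descriptions, with no test.

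**Figure D5:**
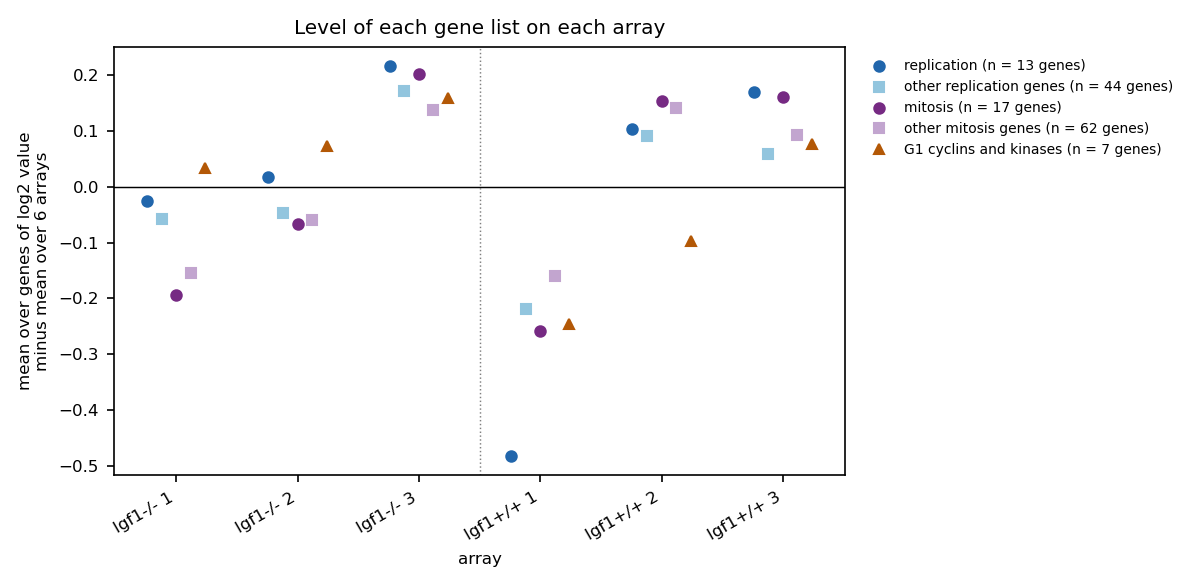
Mean over the genes of a list of the log2 value minus that gene's mean over the 6 arrays (y axis, log2 units), for each array (x axis) and list (symbols, with the number of genes). Both replication lists and both mitosis lists were lowest on Igf1+/+ replicate 1, and the listed replication genes reached -0.48 there.

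None of the further genes of the same processes rose or fell. Of 44 further replication genes on the array (from 50 listed, such as the origin recognition complex, GINS and the polymerases), 29 had a log2 fold change above 0 and 15 below, with a median of 0.04, and Igf1+/+ replicate 1 was the lowest array for 28 of the 44. The lowest p values belonged to Dck, a kinase of the deoxynucleoside salvage pathway, with -0.29 (adjusted p = 0.304), to Rpa1, a subunit of the single-strand binding protein, with 0.18 (adjusted p = 0.412), and to Orc4, with -0.22 (adjusted p = 0.427). Of 62 further mitosis genes (from 74 listed), 22 had a fold change above 0 and 40 below, with a median of -0.04, and Igf1+/+ replicate 1 was the lowest array for 23 of the 62. Their mean deviation was nearly as low on Igf1-/- replicate 1 (-0.154) as on that array (-0.160), and highest on Igf1+/+ replicate 2 (0.142). Cdc27, a subunit of the anaphase-promoting complex, had values of 5.26, 5.40 and 5.27 against 5.60, 5.61 and 5.62 (log2 fold change -0.30, adjusted p = 0.162, with a range of 0.0818 to 0.440 over the alternatives), and Cdc25b, a phosphatase that activates Cdk1, had 7.74, 7.42 and 7.44 against 8.27, 7.83 and 7.98 (log2 fold change -0.49, adjusted p = 0.191, with a range of 0.0943 to 0.480). Groups did not overlap for either. Anapc5, another subunit of the anaphase-promoting complex, had a difference in the opposite direction, 0.20 (adjusted p = 0.364). Of the 62 genes, 2 lay below the controls on every Igf1-/- array and 1 above, against 6.84% and 11.9% of all genes. Without Igf1+/+ replicate 1 the medians were -0.04 for the replication and -0.12 for the mitosis genes.

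Whole lung holds blood and immune precursors that divide, and markers of several cell types moved with genotype or with an array. The summed linear level of 11 erythroid markers ran from 1253 to 1577 in the Igf1-/- lungs and from 2131 to 2517 in the controls, and 2 of the 11 fell, Slc4a1 and Alas2. The list as a whole was mixed, since 6 of the 11 had a log2 fold change above 0 and 5 below, with a median of 0.09. Some of the 6 were dim, with Igf1-/- means of 3.81 for Rhag, 4.06 for Hba-a1 and 4.46 for Epb42, and say little. Without overlap, 3 of the 11 lay below the controls, among them Tspo2 (-0.37), and 2 above. The summed level of 7 markers of neutrophil precursors ran from 753 to 1095 against 578 to 612, and all 7 were higher with no overlap, of which Camp rose. The sums of 9 T lineage markers ran from 398 to 416 against 349 to 388. None of these 9 rose, and 3 were higher with no overlap. Some were dim, such as Rag1 and Cd3g, with Igf1-/- means of 3.76 and 4.01. Sums of lung epithelium (41606 to 47295 against 41737 to 46624), mesenchyme (18156 to 20866 against 18038 to 19588), endothelium (5277 to 6373 against 5972 to 6766), macrophages (5432 to 7231 against 6307 to 8413) and B lineage (423 to 482 against 405 to 456) overlapped. The bright Lyz2 dominated the macrophage sum, whereas 6 of the 8 macrophage markers had a log2 fold change above 0, with a median of 0.16, and 4 were higher on every Igf1-/- array than on any control. None of them rose. The sum of 8 heart muscle markers was 10080 on Igf1-/- replicate 3, the array with the highest cell cycle values, and 4027 to 4785 on the other 5. The part of these cells in the values of the cell cycle genes was not tested.

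The 6 arrays correlated with each other at 0.992 to 0.996 and had medians of 6.85 to 6.89. The difference between 3-prime and 5-prime control probe sets, a sign of RNA degradation, was -0.01 to 0.13 for Gapdh and 0.23 to 0.43 for beta-actin. For both it was highest on Igf1-/- replicate 3 (0.131 and 0.434) and next highest on Igf1+/+ replicate 1 (0.128 and 0.408). The 5-prime control probe set of 18S rRNA was highest on Igf1+/+ replicate 1, at 9.75, followed by 8.99 on Igf1-/- replicate 3 and 7.67 to 8.63 on the others. The part of these measures in the low values of Igf1+/+ replicate 1 was not tested. Igf1 itself had values of 8.87, 8.99 and 9.38 against 9.28, 9.85 and 9.65 at its brightest probe set, which overlapped. Both other probe sets were also lower in mean, and at the dimmest all 3 Igf1-/- arrays lay below the controls (log2 fold change -0.58, adjusted p = 0.152). Where its probe sets lie relative to the deleted sequence was not stated, so that they check little about the genotypes.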

How the data were processed

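Total RNA of whole lungs was hybridised by the authors to 3-prime oligonucleotide arrays of mouse genes, 1 array per replicate, from 6 µg of RNA per the labels or 5 µg per the methods. The deposited values are on a log2 scale and were made by the authors with RMA (which corrects the background, quantile-normalizes the arrays and summarises each probe set) from 12 arrays, of which 6 were of lung and 6 of cochlea. The RMA version is not stated. The cochlear arrays were not used. The genotype and the replicate number were taken from the sample titles. No batch is given.

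Of 22690 probe sets, 64 controls were left out of the fit. Genes were named from the platform annotation, in which 20380 of the 22626 mouse probe sets have 1 symbol. In R 4.3.3, limma 3.58.1 (lmFit, eBayes) was fitted to the 6 lung arrays with genotype as the only term, with Benjamini-Hochberg adjustment over the 22626 probe sets. The authors tested with SAM, which was not run. A call was an adjusted p under 0.10, with 0.20 printed beside it. Precision is limited by the number of arrays, and quantile normalization sets 1 distribution on all arrays, so that a shift shared by all genes cannot be seen.

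The members and the lists were chosen with earlier results of these data known. Full values are given for called genes, the 3 members of each role with the largest absolute log2 fold change, both CDK inhibitors, the transcription factors and members whose probe sets differ in sign and by over 0.3. Of the other lists, called genes or else the 3 with the lowest p are named. Alternatives were a replicate block, quantile normalization or centring of the lung arrays, leaving out dim probe sets, a variance trend with robust estimates, array weights, the median probe set of a gene, other levels and leaving out each array. The fit was tested on simulated data. Promoter windows were read from a RefSeq table with Python 3.11.15. Other experiments of the study were left out.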

Additional observations from a re-analysis of the deposited data

How the results depend on the processing

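The count of members that rose or fell was 0 with all arrays and remained 0 with the replicate block, after centring or quantile normalization of the lung arrays, with dim probe sets left out, the variance trend and the median over probe sets. It was 1 with array quality weights (Ccnd2, adjusted p = 0.0658) and at an adjusted p under 0.20, and 0 to 2 when each array was left out. The count of called probe sets, 126, was 204 with the variance trend and robust estimates, 628 with array quality weights, 588 at an adjusted p under 0.20, 54 under 0.05 and 45 to 710 when each array was left out (leaving out an Igf1-/- array, in the order of the replicates, gave 58, 63 or 45, and a control array 55, 55 or 710). Array weights gave Igf1+/+ replicate 3 a weight of 0.513 and Igf1+/+ replicate 2 2.03, and the cause was not tested.

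Replication genes with a fold change above 0 numbered 1 (without Igf1+/+ replicate 1) to 13 in the fits that left out an array, with medians of -0.07 to 0.27. Mitosis genes numbered 1 (without Igf1+/+ replicate 1), 2 (without Igf1-/- replicate 3) to 13 (without Igf1-/- replicate 1), with medians of -0.15 to 0.10. Among the genes given with a log2 fold change of their own, the directions that turned when an array was left out, with the range over the 6 fits, were those of Mcm2 (-0.066 to 0.31), Mcm3 (-0.10 to 0.42), Mcm4 (-0.058 to 0.18), Mcm5 (-0.0042 to 0.55), Mcm6 (-0.033 to 0.38), Pcna (-0.053 to 0.18), E2f1 (-0.073 to 0.19), Mycn (-0.065 to 0.14), Cdk1 (-0.080 to 0.19), Top2a (-0.15 to 0.19), Kif11 (-0.25 to 0.054), Mki67 (-0.29 to 0.0026), Ccnd1 (-0.085 to 0.24), Ccne2 (-0.27 to 0.055) and Cdkn2d (-0.17 to 0.010). With the median over probe sets, Mycn was -0.21 and Mcm4 -0.036. Rb1 passed the threshold without Igf1+/+ replicate 3 (adjusted p = 0.0965), and Cdc27 with array weights (adjusted p = 0.0818).

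Same-numbered replicates of both genotypes deviated from their group means with correlations of -0.04, -0.23 and -0.14. These values show no pairing by number, but they cannot settle whether same-numbered lungs shared a litter or a run. With the replicate block 138 probe sets were called, and of the cell cycle genes given with a log2 fold change of their own Cdc25b alone changed its call (adjusted p = 0.0943). The cell type markers were not run with the block. Where dim probe sets were left out, 6 of those cell cycle genes had no value.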
